A study of Drosophila melanogaster and Drosophila virilis and Drosophila yakuba with 44 samples.

Results

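Imaginal discs are the epithelial sacs of the fly larva that form the adult appendages, and 5 D. melanogaster cell lines derived from them (cmel1, mldmd16_c3, Dmd4, Dmd32 and Dmd20) were compared with 2 hemocyte-like lines (mbn2 and S2R+). These 7 lines were chosen by origin from the 23 D. melanogaster 3′-seq libraries of one count table, which belong to a series of 44 libraries (3′-seq, with some total RNA-seq) of tissues, embryos and cell lines from D. melanogaster, D. yakuba and D. virilis. The labels name each line but not its class, so the classes rest on what is known of these established lines. cmel1 came from leg discs, mldmd16_c3 and Dmd32 from wing discs, Dmd20 from antennal discs and Dmd4 from mixed discs. mbn2 was set up from larval blood cells of a malignant blood neoplasm mutant, and S2R+ descends from the S2 line of late embryos. The labels name no treatment and give no genotype. How the lines were cultured is not described in the sources used here, so its part in the differences was not tested. Each line gave 1 library. The lines therefore serve as the replicates of a class, and the p-values measure the spread between lines and not between cultures. The mbn2 stocks in use have been reported to resemble S2 cells closely, so mbn2 and S2R+ may not be separate origins of one cell class.

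Disc cells take their identity from selector genes, transcription factors that fix which appendage or region a cell forms, under Hedgehog, Wingless, Dpp and EGF receptor signalling. The discs also carry adepithelial myoblasts, the precursors of adult muscle, which use the factor twi and the FGF receptor htl. Hemocytes are the blood cells. Most are plasmatocytes, which engulf microbes and dead cells through receptors such as eater and NimC1 and secrete matrix proteins, and a minority are crystal cells, which make the prophenoloxidases of melanization.

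3′-seq reads start at the poly(A) tail, so that a gene's count does not grow with transcript length. Levels are given in RPM, reads per megaread of the library, after trimmed mean of M-values (TMM) scaling over the 7 lines. The libraries held 1892225 to 9793900 counted reads in the disc lines, and 2328090 (mbn2) and 7045455 (S2R+) in the hemocyte-like lines, so that depth did not separate the classes. A count of 0 allows up to 3 reads, or 0.319 to 1.68 RPM in the disc lines, 1.31 RPM in mbn2 and 0.377 RPM in S2R+, for counting error only. The table held 13458 genes, and 6838 with at least 10 CPM (counts per megaread, before that scaling) in at least 2 of the 7 lines were tested. In bulk RNA, fewer cells of a type cannot be told apart from less RNA per cell.

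Of the 6838 genes tested, 32 (0.468%) were higher in disc lines and 14 (0.205%) were higher in hemocyte-like lines, with edgeR's quasi-likelihood test at an adjusted p under 0.05. The 2 classes did not overlap at any of these 46 genes. Without adjustment 1088 genes had a p under 0.05. Over all genes tested, every disc line was above both hemocyte-like lines for 726 genes (10.6%) and below both for 747 genes (10.9%). With library totals as the only scaling these counts were 590 and 921. The median log2 fold change, disc over hemocyte-like, was 0.04. The call of most genes depended on single lines, since between 5 and 40 genes were called higher in disc lines, and between 2 and 24 higher in hemocyte-like lines, when 1 line was left out. Only RpL28 and cib were called in each of those 7 fits.

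**Figure D1:**
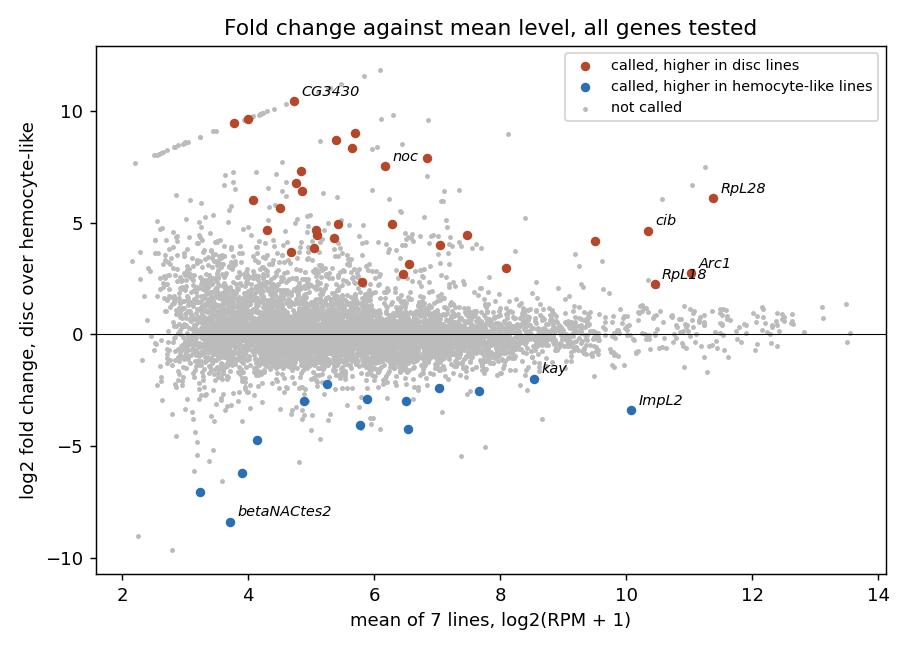
The log2 fold change of disc over hemocyte-like lines is plotted against the mean level of the 7 lines, as log2(RPM + 1), with 1 point per gene tested. The 32 genes called higher in disc lines and the 14 called higher in hemocyte-like lines are coloured, and RpL28, cib, Arc1 and ImpL2 stand out at high levels. The line of points at the upper left holds genes with no read in either hemocyte-like line, whose fold change depends on the prior count of the fit.

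A pair of selector genes was among those higher in disc lines. noc and elB encode related zinc-finger proteins that act together in the development of legs, eyes and trachea, and they lie on chromosome arm 2L of dm6, at 14490859 to 14494019 on the plus strand (noc) and 14390628 to 14409549 on the minus strand (elB), 81310 bases apart. noc was at 133 RPM in cmel1, 155 in mldmd16_c3, 85.8 in Dmd4, 52.0 in Dmd32 and 71.7 in Dmd20, against 0 RPM in mbn2 and 0.755 RPM in S2R+. elB was at 72.9 RPM in cmel1, 16.3 in mldmd16_c3, 52.2 in Dmd4, 41.4 in Dmd32 and 44.7 in Dmd20, against 3.05 RPM in mbn2 and 1.38 RPM in S2R+. The lowest disc line was thus 68.8 times the higher hemocyte-like line for noc and 5.36 times for elB. The log2 fold change was 7.53 ± 0.94 (SE, edgeR adjusted p = 0.0167) for noc and 4.43 ± 0.77 (adjusted p = 0.0457) for elB. The elB call held with mldmd16_c3 left out, and was lost with any other single line left out. They were the only called genes within 100 kb of each other.

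The highest expressed gene of the disc-higher set encodes a protein of the large ribosomal subunit. RpL28 was at 2497 RPM in cmel1, 5099 in mldmd16_c3, 2957 in Dmd4, 2988 in Dmd32 and 5030 in Dmd20, against 58.8 RPM in mbn2 and 49.7 RPM in S2R+. The log2 fold change was 6.10 ± 0.50 (SE, edgeR adjusted p = 0.00622), and the lowest disc line was 42.5 times the higher hemocyte-like line. RpL18, of the same subunit, was at 1651, 1558, 2173, 1496 and 2185 RPM in the disc lines in the order above, against 409 RPM in mbn2 and 358 RPM in S2R+ (log2 fold change 2.24 ± 0.31, adjusted p = 0.0255). RpL28 lies on 3L at 3220911 to 3222960 (minus strand) and RpL18 on 3L at 7240203 to 7241351 (minus strand), each overlapping a gene on the other strand. All 16 other D. melanogaster libraries, from 3 more cell lines, embryos and adult tissues, had more RpL28 than mbn2 and S2R+, with 333 RPM in the lowest when all 23 libraries were scaled together.

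Other cytoplasmic ribosomal protein genes were shifted in the same direction by less. Of 85 tested genes of the RpL and RpS family, 41 (48.2%) were above both hemocyte-like lines in every disc line and 1, RpL5, was below both in every disc line, against 10.6% and 10.9% of all genes tested. Their median log2 fold change was 0.59, and 2 were called, RpL28 and RpL18. Their summed level was 271600 to 342600 RPM in the disc lines, against 228300 RPM in mbn2 and 187100 RPM in S2R+, so the sums did not overlap. The direction held with library totals alone (median 0.47, 38 genes above and 3 below) and with TMM over 23 libraries (median 0.50, 38 above and 3 below). RpLP2, a protein of the ribosomal stalk, had a log2 fold change of 1.24 ± 0.26 (adjusted p = 0.0918) and RpL5 one of -1.002 ± 0.29 (adjusted p = 0.168). The 70 tested genes for mitochondrial ribosomal proteins had a median of 0.02, with 8 above and 5 below. Several ribosomal protein genes have close copies, and reads shared between copies may have been split or dropped in counting.

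Further genes with general functions in the cell were called higher in disc lines. cib, named after its values were seen, encodes an actin monomer-binding protein. cib was at 1574 RPM in cmel1, 1520 in mldmd16_c3, 1624 in Dmd4, 2451 in Dmd32 and 1777 in Dmd20, against 47.9 RPM in mbn2 and 94.6 RPM in S2R+ (log2 fold change 4.65 ± 0.45, edgeR adjusted p = 0.0113). SF1, the splicing factor that binds the branch point, was at 86.2 to 117 RPM in the disc lines, against 1.74 RPM in mbn2 and 4.66 RPM in S2R+. Its level in the 16 other libraries was uneven, with 113 RPM in BG3, 57.4 RPM in OSS and 2.75 RPM in GM2 on the scale of 23 libraries. Mcm3, a subunit of the helicase that opens replication origins, was at 37.7 to 79.1 RPM in the disc lines, against 1.31 RPM in mbn2 and 2.26 RPM in S2R+. The subunits Mcm2 and Mcm7 had log2 fold changes of 1.199 and 1.66, and every disc line was above both hemocyte-like lines for each. Neither was called by edgeR (adjusted p = 0.357 and 0.121), while DESeq2 called Mcm7 (adjusted p = 0.00249). The subunits Mcm5 and Mcm6 overlapped between the classes on the scale of 23 libraries. Mcm5 was at 4.30 to 91.0 RPM in the disc lines, against 42.7 RPM in mbn2 and 91.3 RPM in S2R+. Mcm6 was at 48.1 to 99.3 RPM in the disc lines, against 35.7 RPM in mbn2 and 96.5 RPM in S2R+.

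Of the genes with the largest differences, 3 had no read in either hemocyte-like line. CG3430 was at 27.7 RPM in cmel1, 45.4 in mldmd16_c3, 29.97 in Dmd4, 25.7 in Dmd32 and 50.3 in Dmd20, at least 122-fold higher on average than the floor of 3 reads over mbn2 and S2R+ together. corolla, a protein of the synaptonemal complex that joins chromosomes in female meiosis, was at 12.1 to 31.1 RPM in the disc lines, at least 71.5-fold above that floor. CG5292, named after its values were seen, was at 13.3 to 23.3 RPM in the disc lines, at least 61.1-fold above it. CG3430 was at 0.635 RPM in GM2 but at 22.6 RPM in BG3 and 20.2 RPM in OSS.

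The remaining genes of this direction among the 15 with the largest fold were Orct (an organic cation transporter), CG6583, CG5335, GstE1 (a glutathione S-transferase), CG8204, CG17065, Usf (a basic helix-loop-helix factor), RhoGAP1A and CG11534. Each was under 0.9 RPM in mbn2 and S2R+. GstE1 was at 276 RPM in cmel1, 138 in mldmd16_c3, 105 in Dmd4, 221 in Dmd32 and 57.2 in Dmd20, against 0.435 RPM in mbn2 and 0.755 RPM in S2R+. Orct spanned 25.2 to 137 RPM over the disc lines, against 0.435 RPM in mbn2 and 0 RPM in S2R+. RhoGAP1A overlaps tyn on the same strand, where tyn was at 656 to 2193 RPM in the disc lines, against 800.02 RPM in mbn2 and 701.5 RPM in S2R+, so its counts are uncertain.

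The called genes outside that rule, named here after their values were seen, held several of high level. Arc1, whose protein forms capsids like those of retroviruses, was at 4551 RPM in cmel1, 2300.4 in mldmd16_c3, 1568 in Dmd4, 2289 in Dmd32 and 3137 in Dmd20, against 465 RPM in mbn2 and 362 RPM in S2R+ (log2 fold change 2.74 ± 0.47, edgeR adjusted p = 0.0457). Syb, a SNARE protein of vesicle fusion, was at 281 to 460 RPM in the disc lines, against 36.6 RPM in mbn2 and 54.9 RPM in S2R+. Herp, a gene of the endoplasmic reticulum stress response, was at 75.9 to 161 RPM in the disc lines, against 17.8 RPM in mbn2 and 17.6 RPM in S2R+. pr, the pterin synthesis gene behind the purple eye mutant, was at 28.8 to 66.5 RPM in the disc lines, against 3.92 RPM in mbn2 and 2.14 RPM in S2R+. CalpB, CG13671, CG10932, pgant2, CG4390, CG4594 and CG3776 were also called, with log2 fold changes between 2.35 and 4.68.

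**Figure D2:**
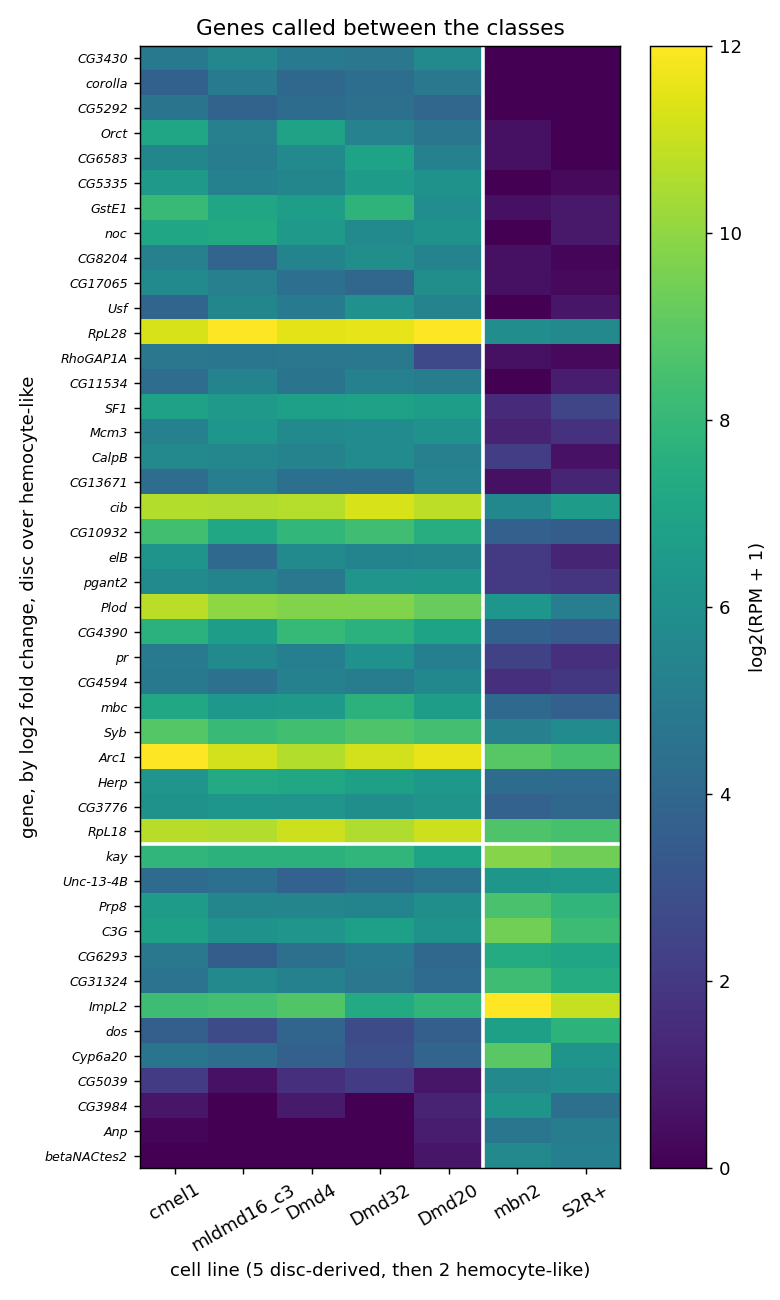
Each row is 1 of 45 of the 46 called genes and each column 1 line, with disc-derived lines left of the white rule and mbn2 and S2R+ right of it, and the colour is log2(RPM + 1). Genes are ordered by log2 fold change, with the 32 disc-higher genes above the horizontal rule and 13 of the 14 hemocyte-higher genes below it, and no row has overlapping classes.

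The 14 genes higher in hemocyte-like lines were led in level by ImpL2, a secreted protein that binds insulin-like peptides and dampens insulin signalling. ImpL2 was at 310 RPM in cmel1, 337 in mldmd16_c3, 421 in Dmd4, 158 in Dmd32 and 227 in Dmd20, against 4151 RPM in mbn2 and 1974 RPM in S2R+. Disc lines were lower by a log2 fold change of -3.40 ± 0.41 (SE, edgeR adjusted p = 0.0140), and the lower hemocyte-like line was 4.69 times the highest disc line. ImpL2 was also high in GM2, an embryonic line, at 3108 RPM on the scale of 23 libraries, so a high level was not limited to mbn2 and S2R+. The gene overlaps CG46460 on the same strand.

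kay, the Fos subunit of the AP-1 factor that JNK signalling drives, was at 240 RPM in cmel1, 207 in mldmd16_c3, 206 in Dmd4, 237 in Dmd32 and 124 in Dmd20, against 910 RPM in mbn2 and 679 RPM in S2R+ (log2 fold change -1.97 ± 0.32, edgeR adjusted p = 0.0383). All 16 other libraries were below both for kay. dos, an adaptor of receptor tyrosine kinases, was at 5.59 to 14.3 RPM in the disc lines, against 111 RPM in mbn2 and 218 RPM in S2R+. C3G, an exchange factor for the GTPase Rap1, was at 67.8 to 110 RPM in the disc lines, against 688 RPM in mbn2 and 299 RPM in S2R+. The classes did not overlap for any of these genes.

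Prp8, the core protein of the spliceosome, was at 98.7 RPM in cmel1 and 41.4 to 61.3 RPM in the other disc lines, against 374 RPM in mbn2 and 240 RPM in S2R+. Cyp6a20, a cytochrome P450, was at 6.71 to 23.3 RPM in the disc lines, against 493 RPM in mbn2 and 73.7 RPM in S2R+, so that the hemocyte-like lines differed more from each other than the disc lines did. Unc-13-4B, CG6293 and CG31324 had log2 fold changes of -2.21, -2.87 and -2.96.

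The largest fold changes of this direction belonged to genes that the disc lines barely expressed. betaNACtes2 and Anp are known from the male germ line and genital tract, and Anp encodes the antibacterial peptide andropin. betaNACtes2 was at 0 RPM in 4 disc lines and at 0.629 RPM in Dmd20, against 49.2 RPM in mbn2 and 34.9 RPM in S2R+. Its near copy betaNACtes6 was at 0 RPM in all 5 disc lines, against 12.2 RPM in mbn2 and 14.2 RPM in S2R+, and was not called by edgeR (adjusted p = 0.136) but was by DESeq2 (adjusted p = 0.00123). Reads of such copies can be split in counting. Anp was under 1 RPM in every disc line, against 24.8 RPM in mbn2 and 33.3 RPM in S2R+. CG5039 and CG3984 reached 3.35 and 1.26 RPM in the highest disc line, against at least 49.2 and 20.6 RPM in the hemocyte-like lines.

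The label of the hemocyte-like class was then set against hemocyte markers, and only zfh1 was on the side of the label without overlap. Of 31 listed genes, 23 were tested and 0 were called by edgeR, the median log2 fold change was 0.72, 3 were above both hemocyte-like lines in every disc line (NimC3, NimB1 and NimB5), 1 was below (zfh1) and 19 overlapped. The shares above (13.0%) and below (4.35%) compare with 10.6% and 10.9% of all genes tested. A gene absent from a class passes the filter only through the other, so the median and counts only describe the members. The list holds factors of blood cell fate, receptors and secreted proteins, and its summed level was 3223 to 8756 RPM in the disc lines, against 9198 RPM in mbn2 and 2341 RPM in S2R+. At an unadjusted p under 0.05 edgeR had 8 of the 23, and DESeq2 called 5, among them NimC3, NimB5, He and zfh1 (adjusted p = 0.00293, 0.0114, 0.0209 and 0.0355). Over all genes tested edgeR had 1088 of 6838 at that unadjusted p. DESeq2 called 392 genes disc-higher and 164 hemocyte-higher of 6775.

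Factors that set blood cell fate were present in every line. srp, the GATA factor that specifies blood and fat body, was at 125 RPM in cmel1, 91.8 in mldmd16_c3, 203 in Dmd4, 592 in Dmd32 and 154 in Dmd20, against 278 RPM in mbn2 and 177 RPM in S2R+. Its cofactor ush was at 74.2 to 164 RPM in the disc lines, against 119 RPM in mbn2 and 216 RPM in S2R+. The classes overlapped for both genes. zfh1, a repressor active in blood and muscle precursors, was at 167 to 302 RPM in the disc lines, against 457 RPM in mbn2 and 629 RPM in S2R+ (log2 fold change -1.21 ± 0.35, edgeR adjusted p = 0.167).

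Genes of mature plasmatocytes split mbn2 from S2R+ and also split the disc lines. Hml, the clotting protein used as the standard plasmatocyte marker, was at 4.15 RPM in cmel1, 65.3 in mldmd16_c3, 8.80 in Dmd4, 29.1 in Dmd32 and 1.57 in Dmd20, against 1398 RPM in mbn2 and 1.64 RPM in S2R+. mbn2 alone was high, at 855 times S2R+, and without it the log2 fold change was 3.64 in place of -5.04. Pxn, a matrix peroxidase of blood cells, was highest in cmel1 (2018 RPM), with 46.2 to 543 RPM in the other disc lines, against 1206 RPM in mbn2 and 124 RPM in S2R+. He, a surface protein of all blood cells, was at 532 RPM in cmel1, 237 in mldmd16_c3, 35.3 in Dmd4, 21.8 in Dmd32 and 197 in Dmd20, against 26.6 RPM in mbn2 and 0.755 RPM in S2R+. Nplp2 ranged from 69.4 RPM in Dmd4 to 5223 RPM in Dmd20, against 3309 RPM in mbn2 and 6.79 RPM in S2R+.

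NimB3 and the receptor genes NimC1 and eater were lowest in S2R+. NimB3 was at 812 RPM in cmel1, 960 in mldmd16_c3, 89.9 in Dmd4, 12.3 in Dmd32 and 457 in Dmd20, against 26.6 RPM in mbn2 and 0 RPM in S2R+. NimC1 reached 33.2 RPM in mldmd16_c3 and was at 2.13 to 16.7 RPM in the other disc lines, against 4.35 RPM in mbn2 and 0 RPM in S2R+. eater ranged from 8.16 RPM in mldmd16_c3 to 533 RPM in Dmd20, against 114.9 RPM in mbn2 and 6.92 RPM in S2R+. PPO2, a crystal cell prophenoloxidase, was at 898 RPM in mldmd16_c3, 52.7 RPM in cmel1 and 0 to 5.77 RPM in the other disc lines, against 0 RPM in mbn2 and 3.77 RPM in S2R+. PPO1 was likewise highest in mldmd16_c3, at 71.4 RPM. Several blood cell genes were thus higher in single disc lines than in both lines named hemocyte-like. With 5 disc lines against 2, a disc line is often the highest without any class difference. The share over all genes was not counted, so this only describes the genes named. The class names are used only to tell the 2 sets of lines apart.

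**Figure D3:**
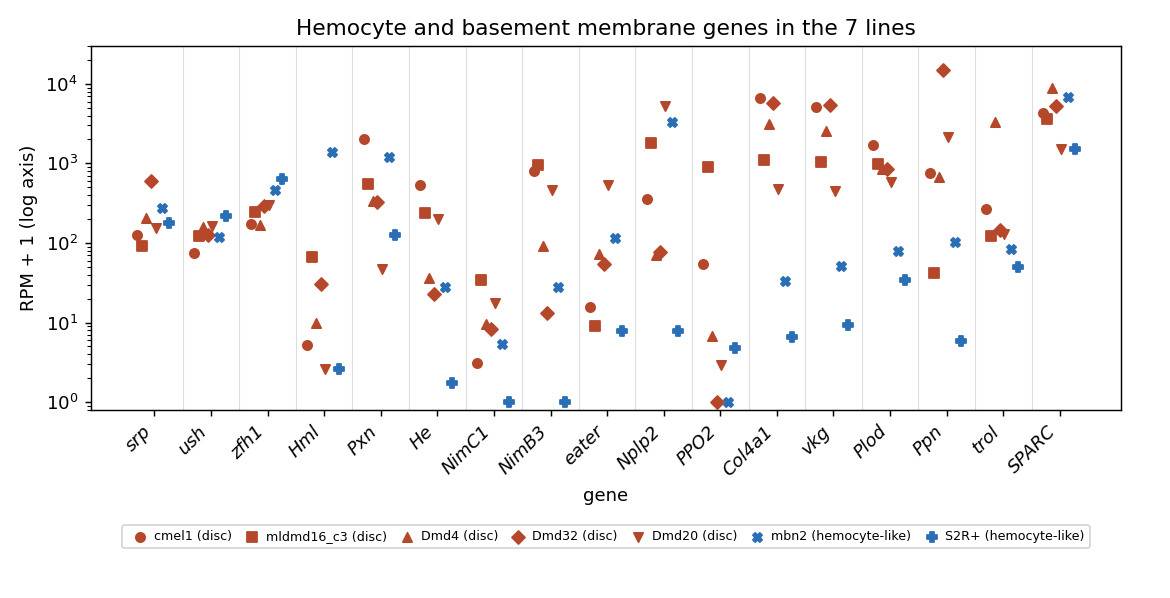
Each point is 1 line, as RPM + 1 on a log axis, for hemocyte genes (srp to PPO2) and basement membrane genes (Col4a1 to SPARC), with the disc-derived lines left of mbn2 and S2R+ for each gene. Hml is high in mbn2 only (1398 RPM), NimC1 and NimB3 have no read in S2R+, and Col4a1, vkg and Plod are above mbn2 and S2R+ in every disc line.

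Basement membrane genes, which blood cells and fat body express in the larva, stood above both hemocyte-like lines in every disc line mainly for the collagens and their modifying enzymes. Of 17 tested genes of this list, 6 (35.3%) were above both hemocyte-like lines in every disc line and 0 were below, against 10.6% and 10.9% of all genes tested. Plod was called. Plod is the lysyl hydroxylase that modifies collagen IV. It was at 1713 RPM in cmel1, 994 in mldmd16_c3, 844 in Dmd4, 852 in Dmd32 and 584 in Dmd20, against 77.9 RPM in mbn2 and 33.6 RPM in S2R+ (log2 fold change 4.17 ± 0.61, edgeR adjusted p = 0.0267). PH4alphaEFB, the prolyl hydroxylase of the same chains, was at 129 to 265 RPM in the disc lines, against 69.2 RPM in mbn2 and 16.0 RPM in S2R+ (adjusted p = 0.179).

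Both collagen IV chains missed the threshold, with wide spread among the disc lines. Col4a1 was at 6586 RPM in cmel1, 1103 in mldmd16_c3, 3147 in Dmd4, 5676 in Dmd32 and 478 in Dmd20, against 32.6 RPM in mbn2 and 5.54 RPM in S2R+ (log2 fold change 7.51 ± 1.501, edgeR adjusted p = 0.0844, DESeq2 adjusted p = 5.81e-13). vkg was at 5185, 1029.8, 2551, 5444 and 447 RPM in the disc lines in the same order, against 50.1 RPM in mbn2 and 8.30 RPM in S2R+ (log2 fold change 6.67 ± 1.42, edgeR adjusted p = 0.0918). cmel1, Dmd32 and Dmd4 were the 3 highest disc lines for both chains, and the classes did not overlap.

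Of the other matrix genes named here, only trol was above both hemocyte-like lines in every disc line. Ppn, the matrix protein papilin, was at 14903 RPM in Dmd32 and at 41.3 RPM in mldmd16_c3, against 101 RPM in mbn2 and 4.91 RPM in S2R+. trol, the perlecan gene, was at 3291 RPM in Dmd4 and 122 to 267 RPM in the other disc lines, against 82.7 RPM in mbn2 and 48.8 RPM in S2R+. The laminin subunit LanA was at 622 to 1740 RPM in the disc lines, against 691 RPM in mbn2 and 577 RPM in S2R+. SPARC, a collagen-binding protein, was at 1525 to 8964 RPM in the disc lines, against 6746 RPM in mbn2 and 1524 RPM in S2R+. Ppn, SPARC and LanA overlapped between the classes.

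Selector genes were checked next, since they are the label of the disc class. Of 66 listed genes 38 were tested, and 28 did not pass the filter. The median log2 fold change was 2.03, 2 were called (noc and elB), 9 (23.7%) were above both hemocyte-like lines in every disc line and 1, pnr, was below (2.63%), against 10.6% and 10.9% of all genes tested. A gene absent from a class passes the filter only through the other, so these counts describe the members and are not support for a shift. The same direction was seen for genes of other cell types, with medians of 1.42 over 14 genes of neurons and glia and 1.09 over 5 genes of germline and follicle cells. Of the 38 selector genes 20 had their highest disc level in Dmd4, as did 9 of the 14 neuron and glia genes. The same held for 1265 of all 6838 genes tested. mbn2 was above S2R+ for 30 of the 38 selector genes (78.9%) against 49.4% of all genes tested. The neuron and glia list summed to 383 to 931 RPM in the disc lines, with Dmd4 highest, against 625 RPM in mbn2 and 397 RPM in S2R+. Its part in the selector result was not tested.

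The disc lines differed in the selector genes they expressed. Scr, the Hox gene of the prothorax and first leg, was at 332 RPM in cmel1 and 1.68 to 35.5 RPM in the other disc lines, against 6.09 RPM in mbn2 and 0 RPM in S2R+. ap, the dorsal selector of the wing, was at 408.5 RPM in Dmd32 and 178 RPM in Dmd20 and at most 16.1 RPM in the other 3 disc lines, against 108 RPM in mbn2 and 107 RPM in S2R+. pnr, a GATA factor of the dorsal body wall, was at 3.30 RPM in cmel1 and 180.5 to 298 RPM in the other disc lines, against 299 RPM in mbn2 and 424 RPM in S2R+. hth, a cofactor of Hox proteins, was highest in Dmd4 (750.0 RPM) and cmel1 (409 RPM). tsh, the trunk selector, was at 1.68 to 59.2 RPM in the disc lines, against 47.9 RPM in mbn2 and 134 RPM in S2R+. The levels of ap, pnr and tsh thus did not set disc lines above hemocyte-like lines.

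ci, the transcription factor at the end of the Hedgehog pathway, was at 48.1 RPM in cmel1, 228 in mldmd16_c3, 121 in Dmd4, 144 in Dmd32 and 72.6 in Dmd20, against 9.14 RPM in mbn2 and 2.01 RPM in S2R+ (log2 fold change 4.53 ± 0.92, edgeR adjusted p = 0.0880, DESeq2 adjusted p = 4.15e-07). pb, the Hox gene of the mouthparts, was at 1.53 to 36.2 RPM in the disc lines with no read in mbn2 or S2R+. rn, a zinc-finger factor of the distal leg, was at 176.5 RPM in cmel1 and 14.5 to 60.6 RPM in the other disc lines, against 12.2 RPM in mbn2 and 1.01 RPM in S2R+. The classes did not overlap for these genes, and none passed the edgeR threshold, whereas DESeq2 called all 3.

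Genes of disc myoblasts had a median log2 fold change of 2.02 over 15 tested genes, and 4 (26.7%) were above both hemocyte-like lines in every disc line (htl, rols, mbc and if), against 10.6% of all genes tested. With library totals alone there were 3. As for the selector genes, a gene absent from a class passes the filter only through the other, so these counts only describe the members. zfh1, counted with the hemocyte genes but also active in muscle precursors, was lower in every disc line (167 to 302 RPM). It was at 457 RPM in mbn2 and 629 RPM in S2R+. mbc, an activator of Rac needed for myoblast fusion and for engulfment, was called. It was at 146 RPM in cmel1, 82.6 in mldmd16_c3, 88.5 in Dmd4, 207 in Dmd32 and 101 in Dmd20, against 16.1 RPM in mbn2 and 12.0 RPM in S2R+ (log2 fold change 3.16 ± 0.54, edgeR adjusted p = 0.0457). htl was at 7.65 to 62.0 RPM in the disc lines, against 0 RPM in mbn2 and 0.755 RPM in S2R+ (adjusted p = 0.110). twi was at 466 RPM in Dmd4, 291 RPM in cmel1 and 9.50 to 33.6 RPM in the other disc lines, against 13.5 RPM in mbn2 and 2.39 RPM in S2R+. stumps, which couples htl to its pathway, was high in other lines, Dmd32 (246 RPM) and mldmd16_c3 (231 RPM). The lines with the most twi were thus not those with the most stumps.

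**Figure D4:**
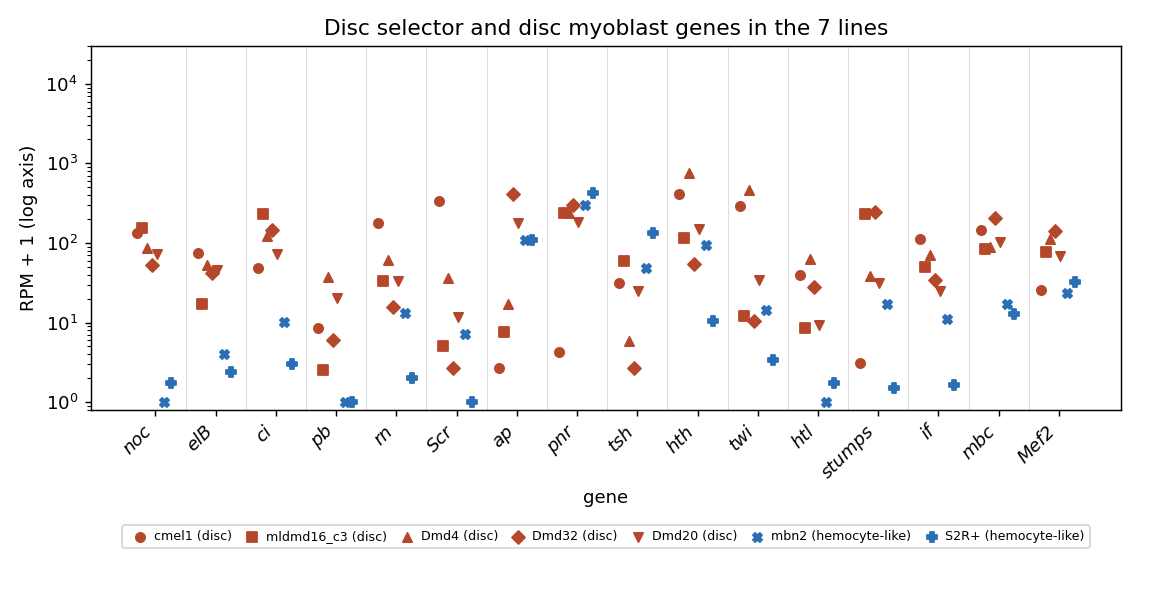
Each point is 1 line, as RPM + 1 on a log axis, for selector genes (noc to hth) and disc myoblast genes (twi to Mef2), with the disc-derived lines left of mbn2 and S2R+ for each gene. noc, elB, ci and mbc are above mbn2 and S2R+ in every disc line, whereas Scr is high in cmel1, ap and stumps are each high in only some of the disc lines, and pnr is lower in every disc line than in mbn2 and S2R+.

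Signalling pathways of the disc and of stress responses were counted as lists. In the JAK-STAT and JNK list 6 of 20 tested genes (30%) were below both hemocyte-like lines in every disc line and 1 was above, against 10.9% and 10.6% of all genes tested. kay was called. dome, the cytokine receptor, was at 12.6 to 40.8 RPM in the disc lines, against 106 RPM in mbn2 and 64.2 RPM in S2R+ (edgeR adjusted p = 0.141). The kinase hop was at 23.3 to 38.0 RPM in the disc lines, against 60.5 RPM in mbn2 and 49.8 RPM in S2R+, and the ligand upd3 at 1.26 to 21.4 RPM in the disc lines, against 24.8 RPM in mbn2 and 43.3 RPM in S2R+. These 3 genes were thus each lower in every disc line, and edgeR called 0 of the 3, whereas DESeq2 called dome (adjusted p = 0.0321). Of the 20 tested genes 13 overlapped between the classes. On the scale of 23 libraries Stat92E was at 161 to 348 RPM in the disc lines, against 493 RPM in mbn2 and 239 RPM in S2R+. Socs36E was at 65.1 to 161 RPM in the disc lines, against 237 RPM in mbn2 and 99.0 RPM in S2R+, so both overlapped.

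In the receptor tyrosine kinase list 7 of 28 tested genes (25.0%) were above and 3 (10.7%) below, against 10.6% and 10.9% of all genes tested, with a median of 1.24, and ImpL2 was called. As for the selector genes, the filter can admit a gene through a single class, so these values only describe the members. aos, a secreted inhibitor of the EGF receptor and a target of its pathway, was at 24.8 to 256 RPM in the disc lines, against 5.66 RPM in mbn2 and 4.53 RPM in S2R+ (edgeR adjusted p = 0.141). grk, an EGF receptor ligand of the ovary, was at 1.79 to 6.81 RPM in the disc lines, against 36.6 RPM in mbn2 and 34.0 RPM in S2R+ (adjusted p = 0.0918). Hedgehog had 3 above and 3 below of 12 tested, Wingless 3 and 2 of 22, Dpp 3 and 3 of 17, and Notch 2 and 0 of 13. The Wingless shares of 13.6% and 9.09% were near those of all genes, and counts in the other 3 pathways rest on few genes. Apc, a part of the complex that destroys the Wingless effector Armadillo, was at 17.3 to 46.9 RPM in the disc lines, against 139 RPM in mbn2 and 135 RPM in S2R+ (adjusted p = 0.0681). edgeR called 0 genes of these 4 pathways. At an unadjusted p under 0.05 there were 5 in Hedgehog, 5 in Wingless, 5 in Dpp and 4 in Notch, and DESeq2 called 2, 3, 1 and 2 in the same order. Over all genes tested 1088 of 6838 had such a p. DESeq2 called 392 genes disc-higher and 164 hemocyte-higher of 6775.

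**Figure D5:**
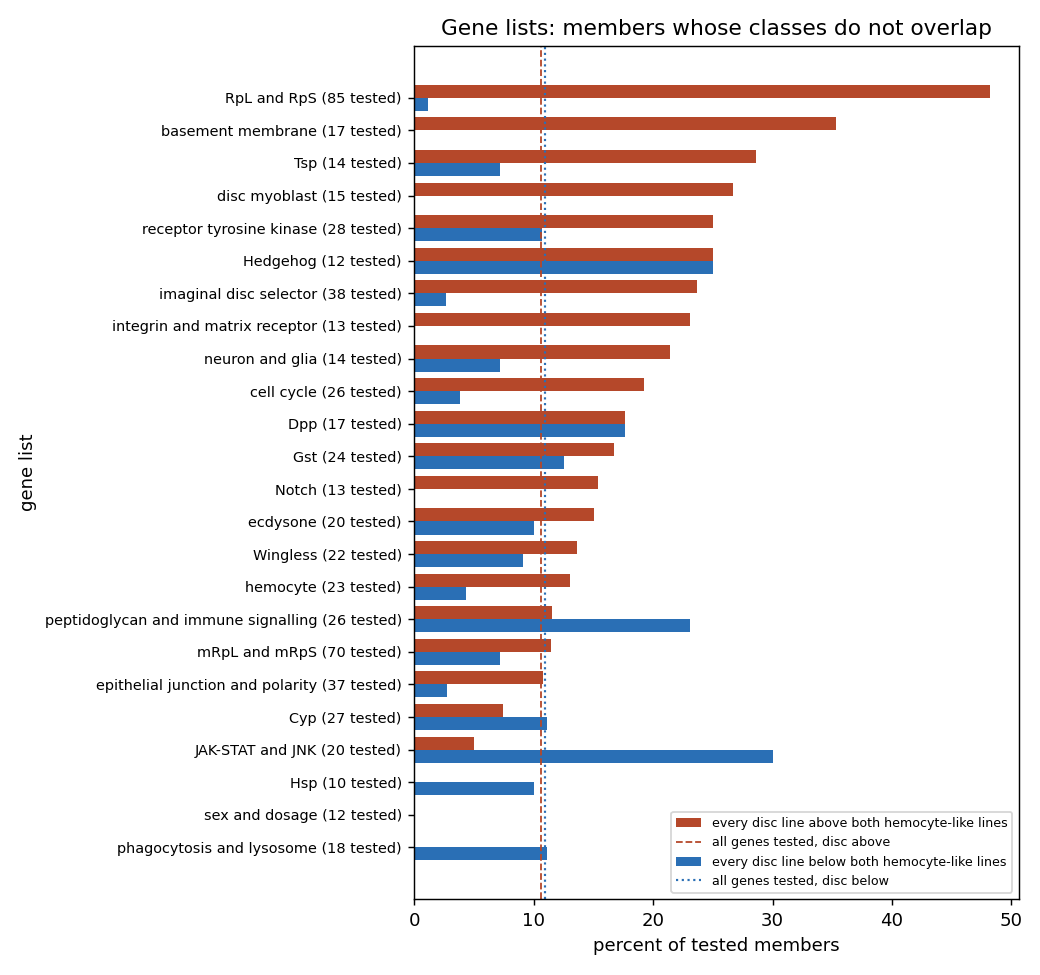
Bars give the percent of tested members of each list with at least 10 tested genes for which every disc line was above (upper bar) or below (lower bar) both hemocyte-like lines, and the vertical lines give the same for all genes tested (10.6% and 10.9%). Ribosomal proteins (48.2%) and basement membrane (35.3%) have the highest bars for disc above, and JAK-STAT and JNK (30%) the highest for disc below.

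Immune genes lay on both sides. In the peptidoglycan and immune signalling list 6 of 26 tested genes (23.1%) were below both hemocyte-like lines in every disc line and 3 (11.5%) were above, against 10.9% and 10.6% of all genes tested. IKKbeta, the kinase of the Imd pathway, was at 2.20 to 6.74 RPM in the disc lines, against 35.7 RPM in mbn2 and 20.3 RPM in S2R+, and the receptor PGRP-LE was at 27.4 to 96.9 RPM in the disc lines, against 4.79 RPM in mbn2 and 8.81 RPM in S2R+. Of the 18 antimicrobial peptide genes found, 6 were tested, and Drs ranged from 0 RPM in Dmd32 to 331 RPM in cmel1, against 34.8 RPM in mbn2 and 3.65 RPM in S2R+. Phagocytosis and lysosome genes had 0 above and 2 below of 18, the cathepsin gene Cp1 and Lamp1. Epithelial junction and polarity genes, the hallmark of disc epithelium, had 4 above (10.8%, near the share of all genes) and 1 below of 37 and a median of 0.31, and integrins and matrix receptors had 3 above and 0 below of 13. edgeR called 0 genes of these 5 lists. At an unadjusted p under 0.05 there were 8 in the peptidoglycan and immune signalling list, 2 among the antimicrobial peptides, 3 in phagocytosis, 4 in the epithelial list and 4 among the integrins, and DESeq2 called 3, 2, 1, 3 and 3 in the same order, with PGRP-LE, IKKbeta, AttD and DptB among them. The same counts over all genes tested were 1088 of 6838 at that p, and 392 disc-higher and 164 hemocyte-higher of 6775 with DESeq2.

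Cell cycle genes had a median of 0.05 over 26 tested genes, with 5 above (19.2%), 1 below (3.85%) and Mcm3 called, against 10.6% above and 10.9% below over all genes tested. stg, the Cdc25 phosphatase that triggers mitosis, was at 1457 RPM in cmel1, 1715 in mldmd16_c3, 647 in Dmd4, 438 in Dmd32 and 795 in Dmd20, against 288 RPM in mbn2 and 209 RPM in S2R+ (edgeR adjusted p = 0.173). Ecdysone genes had 3 above and 2 below of 20, and the sex and dosage genes had 0 above and 0 below of 12, with a median of 0.01. Crystal cell and lamellocyte genes had a median of 2.38 over 8 tested, with 1 above, Nrg. Fat body and trachea genes had a median of 1.45 over 5 tested, with 1 above. As for the selector genes, a gene absent from a class passes the filter only through the other, so these medians only describe the members.

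The called genes were counted by chromosome arm. Genes tested numbered 1237 on 2L, 1376 on 2R, 1286 on 3L, 1646 on 3R, 65 on chromosome 4 and 1178 on X. Chromosome 4 held 0 called genes. Of the 32 disc-higher genes 8 were on 2L, 6 on 2R, 6 on 3L, 5 on 3R and 7 on X, and of the 14 hemocyte-higher genes 0 were on 2L, 3 on 2R, 2 on 3L, 7 on 3R and 2 on X. On 2L 152 of 1237 tested genes (12.3%) were above both hemocyte-like lines in every disc line and 92 (7.44%) below, and on 2R 144 of 1376 (10.5%) were above and 196 (14.2%) below. The median log2(RPM + 1) relative to the mean of the disc lines was -0.22 on 2L and 0.22 on 2R in S2R+, and 0.03 and 0.0 in mbn2. The shift of these arms was thus present in S2R+ and not in mbn2. Next to the disc-higher genes, 2 of 126 tested neighbours (2 on each side) were called in the same direction, the 2 being noc and elB themselves, and next to the hemocyte-higher genes 0 of 56 were. Of the 46 called genes 3 overlap a gene on the same strand and 21 a gene on the other strand. Leaving out genes that overlap on the same strand kept 6426 of the 6838 genes tested. The share for the other strand was not counted over all genes. Whether the reads were counted by strand is not given in the sources used here.

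At the called genes the other cell lines, neither disc-derived nor hemocyte-like by the rule, mostly stood with the disc lines. Of the 32 disc-higher genes, 28 were above both mbn2 and S2R+ in GM2, 31 in BG3 (a line from larval nervous system) and 31 in OSS (ovarian somatic cells). Of the 14 hemocyte-higher genes, 12 were below both mbn2 and S2R+ in GM2, 14 in BG3 and 12 in OSS. Over all 16 other libraries, 8 of the 32 and 6 of the 14 had every library on the side of the disc lines. The genes were called because mbn2 and S2R+ lay apart from the disc lines, so these counts follow in part from that choice. No such count was made over all genes tested, and these are given as a description.

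Across genes, the lines of a class were more alike than lines of different classes, by a small margin. Over the 6838 genes tested, Pearson's r of log2(RPM + 1) was 0.750 to 0.834 for the 10 pairs of disc lines and 0.816 for mbn2 with S2R+, against 0.659 to 0.768 for the 10 mixed pairs. The least alike disc lines, Dmd4 and Dmd32, were at 0.750 and the most alike, mldmd16_c3 and Dmd20, at 0.834. cmel1 was the disc line nearest to mbn2 (0.768) and S2R+ (0.765). The ranges of pairs within the disc class and between classes overlapped. These coefficients are across genes, which are not independent replicates, and pairs share lines, so they are given as a description.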

How the data were processed

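Per the labels and the methods of the study, 3′-seq libraries were made from 2 μg of total RNA with oligo(dT) priming, the processing notes of the submitters name Trimmomatic 0.36, HISAT2 and dm6, and the authors deposited raw counts of reads per gene, made with featureCounts on an annotation with extended 3′ ends. The labels gave no batch or replicate number. Counts of the 7 lines were used as deposited. Genes with at least 10 CPM in at least 2 lines were fitted with edgeR 4.0.16 (quasi-likelihood test, TMM factors of 0.916 to 1.13, Benjamini-Hochberg adjustment over all genes tested) in R 4.3.3. Standard errors are those implied by the F statistic, and no pseudocount other than edgeR's prior entered the test. Tested genes held 98.5% to 99.5% of the reads. The steps were tested on simulated data whose spread between lines was capped below that typical of these lines. That test therefore does not give their power or error rate here.

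The text names the 15 genes of each direction with the largest fold among called genes with classes that do not overlap and at least 20 RPM in the higher class (15 and 14 existed), and members of gene lists. 1 of these genes is counted but not reported by name here. Other called genes were named after their values were seen. The lines, lists and named genes were chosen with earlier results of these data known. Alternatives were DESeq2 1.42.0, limma-voom (limma 3.58.1), other scalings and filters, a test against a 2-fold change, thinning, the fit of 10 lines and each line left out. The alternative without genes that overlap on the same strand was chosen after seeing the data. Positions are those of dm6 in an Ensembl annotation matched for 99.5% of gene names, and promoter motifs were not analysed here.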

Additional observations from a re-analysis of the deposited data

Results flagged for a closer look

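Values of the 5 disc lines were screened for a line whose gap to its nearest neighbour, on the log2(RPM + 1) scale, was over 0.71 of the range, for 126 genes named in the text or called. Chance flags about 1 in 20 groups, and 6 values were found among the 126 genes, which is near that share. Dmd20 was the lowest disc line for RhoGAP1A, at 5.35 RPM, and for kay, at 124 RPM. It was the highest for Anp, at 0.943 RPM, and for betaNACtes2, at 0.629 RPM, which are a few reads each. cmel1 was the lowest for pnr, at 3.30 RPM, and Dmd4 the highest for trol, at 3291 RPM.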

How the results depend on the processing

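The counts of called genes moved with the tool and the lines far more than with the scaling. Genes called higher in disc lines and in hemocyte-like lines numbered 392 and 164 with DESeq2, which held all 46 of the edgeR calls, 6 and 7 with limma-voom, 17 and 5 against a 2-fold change, 20 and 8 at a minimum of 50 CPM, and 47 and 31 with no filter beyond 1 read. RLE, library totals, TMM over 23 libraries, the minimum of 1 CPM, thinning, the fit of 10 lines and the omission of overlapping genes gave 22 to 33 and 11 to 18. Leaving out 1 line at a time gave 5 to 40 and 2 to 24 calls, with 5 and 2 without mbn2, 5 and 4 without S2R+, 10 and 2 without Dmd20, 12 and 5 without Dmd32, 16 and 6 without mldmd16_c3, 24 and 7 without Dmd4 and 40 and 24 without cmel1. With 1 hemocyte-like line left, that line is assumed to vary like the disc lines. No called gene changed direction in any of these fits, and 7 (RpL28, cib, CG10932, Plod, Syb, ImpL2 and dos) were called in each fit that kept all lines and tested them. The cause was not tested.

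The correlation of mbn2 with S2R+ was 0.856 with a pseudocount of 10 RPM and 0.874 at a minimum of 1 CPM. Among genes not called, some changed sign. Pxn was at 0.098 with limma-voom, 0.068 with TMM over 23 libraries and 0.011 at 50 CPM. Nplp2 was at 1.83 with limma-voom. srp was at -0.269 with limma-voom, -0.102 with library totals, -0.106 with TMM over 23 libraries, -0.021 at 1 CPM and -0.013 with no filter. ap was at -2.774, -0.009 and -0.059 with limma-voom, library totals and TMM over 23 libraries. With 1 line left out at a time, the log2 fold change, disc over hemocyte-like, ranged from -6.035 to 3.635 for Hml, -1.082 to 2.342 for Pxn, -0.698 to 4.248 for eater, -1.276 to 2.948 for Sr-CI, -1.511 to 7.737 for Nplp2, -0.196 to 3.336 for Glt, -0.662 to 0.348 for srp, -0.798 to 0.116 for ush, -1.092 to 0.5 for ap and -0.495 to 1.591 for SPARC. The positive ends of Hml, Pxn, Sr-CI and Nplp2 are those without mbn2. No paired analysis was possible because each line gave 1 library and no disc line had a hemocyte-like partner.

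Depth limits genes under about 2 RPM in the shallowest lines, and 2 lines in a class limit every test.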
